A study of Mus musculus with 23 samples.

Results

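The transition between the zygote and the 2-cell stage was examined in mouse embryos in which the transcription factor Etv5 had been targeted by siRNA. All libraries carrying the siEtv5 label were taken: 2 of 2-cell embryos and 3 of zygotes, 5 of the 23 RNA-seq libraries of the series. The labels give the strain as B6D2F1 (C57BL/6xDBA/2), which in the study's methods is that of the oocyte donors, the sperm being from C57BL/6 males. Germinal vesicle oocytes received siEtv5 by injection, were matured in vitro, fertilized with sperm in vitro according to the labels, and harvested at 36 h (2-cell) or 14 h (late zygote) after fertilization. The study's text differs here, with sperm injection into the oocyte and somewhat later harvests at both stages. Embryos of both stages thus carried siRNA against Etv5, for which several siRNAs were designed in the study, and no untreated embryos belong to this comparison. Embryos injected with a control siRNA (siCtrl) or with siMlx, handled in the same way, gave 3 libraries at each stage and served for the comparisons at the end. In the study, siEtv5 was one of the siRNAs used to ask whether factors with motifs at zygotic gene promoters are needed for genome activation, and Etv5 was the negative control among them. The zona pellucida was removed with protease before lysis, so the libraries held whole embryos rather than sorted cells. The sources used here do not say whether libraries of a group came from separate collections of embryos, so p-values measure only the spread between these libraries, which may be technical.

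The mouse zygote starts with RNA that the oocyte stored during growth. In the mouse, transcription begins weakly in the zygote and strongly in the 2-cell embryo, the major wave of zygotic genome activation, while maternal RNA is degraded. ETS factors such as Etv5, Spic and Gabpa share a DNA-binding domain that recognizes a GGAA core. Values below are FPKM, fragments per kilobase of transcript scaled to the mapped fragments of the library, summed over the transcripts of a gene. FPKM is a share of the RNA in a library, so a larger value can mean more RNA of the gene or less of the others, and fewer cells cannot be told apart from less RNA per cell.

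The 5 libraries were of comparable depth, with 792 and 811 Mb of transcript-aligned sequence in 2-cell libraries against 991, 556 and 797 Mb in zygote libraries. Libraries of a stage resembled each other: across the 10887 genes tested, log2 values correlated at r = 0.94 between the 2-cell libraries and at 0.93 to 0.96 between zygote libraries, but at 0.41 to 0.43 between the stages. These correlations are across genes, which are not independent replicates. All 8 oocyte markers were present, with a summed level of 580 and 607 FPKM in 2-cell libraries against 2458 to 3614 FPKM in zygote libraries. Of 8 markers of the 2-cell embryo, 5 were present, with a summed level of 854 and 1008 FPKM in 2-cell libraries against 17.2 to 29.7 FPKM in zygote libraries. Tcstv1, Tcstv3 and Gm4340 were listed at 0 in all 5 libraries.

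Etv5 (chr16:22381386-22439643, minus strand, mm9, 13 exons) was measured at 8.98 and 5.55 FPKM in the 2-cell siEtv5 libraries, against 0.0792 FPKM in one zygote siEtv5 library and a listed value of 0 in the other two. Etv5 thus rose at the 2-cell stage under its own siRNA (log2 fold change 2.83 ± 0.28 SE, adjusted p = 0.00029). The siCtrl libraries gave 49.3, 43.7 and 44.6 FPKM at the 2-cell stage, and all 3 lay above both siEtv5 libraries. The siEtv5 mean of 7.27 FPKM was 15.8% of the siCtrl mean of 45.9 FPKM (two-sided exact permutation test, p = 0.2, with 2 against 3 libraries the lowest value possible). Zygote siCtrl libraries held 2.01, 0.68 and 1.20 FPKM of Etv5, again all above the siEtv5 zygotes (exact permutation p = 0.1, the lowest value for 3 against 3). The labels and the level of Etv5 therefore point the same way at both stages.

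At the level of the whole transcriptome, the siEtv5 2-cell embryos expressed more genes, and their RNA was spread over more of them. Genes at 1 FPKM or more numbered 11135 and 11096 in 2-cell libraries against 8977, 8665 and 8561 in zygote libraries. The 100 most abundant genes held 24.0 and 24.7% of the summed FPKM in 2-cell libraries, against 43.0, 48.7 and 47.7% in zygote libraries. The stages did not overlap in either measure (exact permutation p = 0.2 each, again the lowest possible). Of 10887 genes averaging 1 FPKM or more, limma called 4130 higher (37.9%) and 2501 lower (23.0%) in 2-cell embryos, where a call needs more than a 2-fold change and an adjusted p below 0.05. In all, 60.9% of genes were called. These shares are the background for every count of list members below. Changes above 4-fold (log2 above 2) comprised 2638 of the rises and 1181 of the falls. The 2-cell libraries lay entirely above the zygote libraries in 5387 genes (49.5%) and entirely below in 2899 (26.6%). The median change of all tested genes was 0.40 on the log2 scale, and became 0.67 with FPKM as deposited and 0.74 after scaling each library to the same total, so changes should be read against that shift. As deposited, 4581 genes were higher and 2111 lower. With a single 2-cell library the spread comes from the zygotes alone, and the counts fell to 2657 higher and 1161 lower without 2-cell replicate 1, and to 2689 and 1182 without replicate 2.

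**Figure D1:**
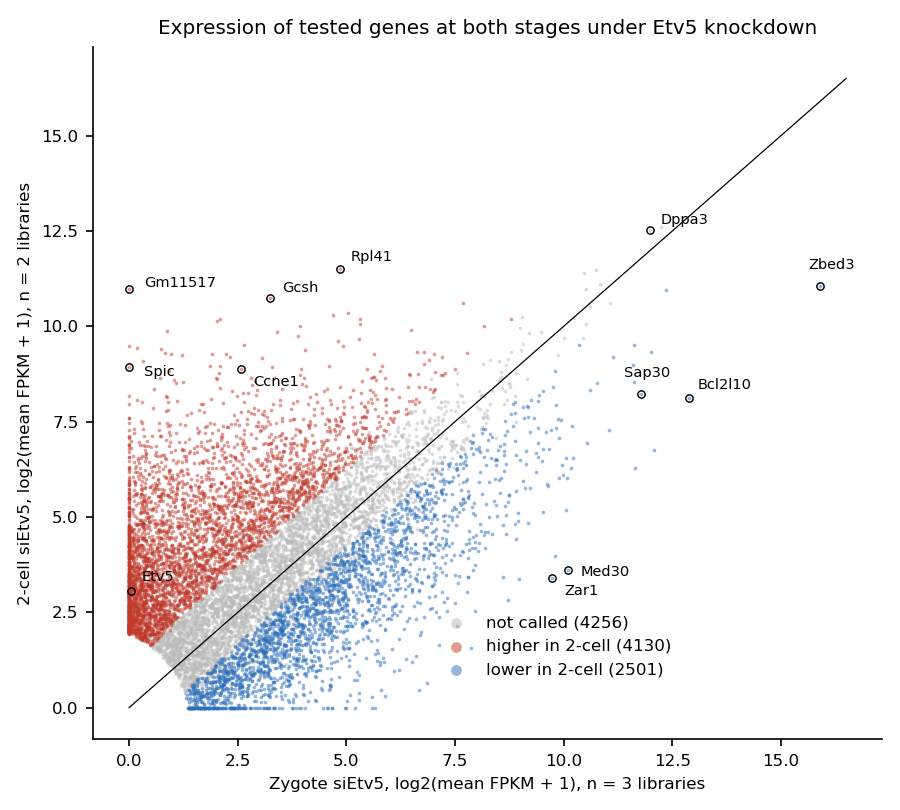
Mean level of each tested gene in 2-cell siEtv5 libraries (vertical axis, log2 of mean FPKM plus 1, n = 2) against zygote siEtv5 libraries (horizontal axis, n = 3), 1 point per gene. The 4130 genes called higher reach down to 0 in zygotes, the 2501 called lower include the most abundant zygote RNA, Zbed3, and the line marks equal levels.

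The genes with the largest rises went from barely detected to among the most abundant RNAs. Gm11517 (chr11:96656646-96659470, minus strand, a non-coding RefSeq entry) was listed at 0 in all 3 zygote libraries and reached 1967 and 2045 FPKM in 2-cell libraries, 0.501 and 0.522% of the summed FPKM. Vimp, a selenoprotein of the endoplasmic reticulum, measured 742 and 684 FPKM in 2-cell libraries and was listed at 0 in zygotes. Spic, an ETS factor known from macrophages, measured 460 and 510 FPKM in 2-cell libraries, and Ctsc, a lysosomal protease, 278 and 302 FPKM. Both were listed at 0 in all zygotes. Those 4 are the most abundant of 531 called genes listed at 0 in all zygote libraries, and adjusted p was 5.1e-05 for each. Genes at 0 in all zygotes passed the filter on their 2-cell values alone, so only a rise could be called.

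Among genes detected in every library, Gm4850 rose most, at 1008.5 and 876 FPKM in 2-cell libraries against 0.750, 1.03 and 0.749 FPKM in zygote libraries (log2 fold change 8.78 ± 0.28 SE, adjusted p = 5.1e-05). Prps1, which makes the ribose donor for nucleotide synthesis, stood at 1186 and 1137 FPKM in 2-cell libraries against 4.28, 2.96 and 2.63 FPKM in zygotes (7.86 ± 0.28). Mt1, a metal-binding metallothionein, stood at 1182 and 1056 FPKM against 4.43, 1.34 and 3.40 FPKM (7.95 ± 0.42). The 2-cell libraries agreed closely in these genes and lay far above every zygote library. Gcsh, a part of the glycine cleavage system, had 1686 and 1726 FPKM in 2-cell libraries against 8.23, 3.60 and 13.4 FPKM in zygotes, the widest relative spread of the group. Trim43b, Ankrd10 and Tdpoz5 rose by 7.58, 7.34 and 7.29 on the log2 scale. Znhit3 rose by 8.10, but its exons overlap Myo19 on the opposite strand, and without strand information its reads cannot be separated from those of Myo19. Tdpoz5 likewise overlaps Gm10697 on the same strand.

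Med30, a subunit of the Mediator complex, fell to 14.2 and 8.32 FPKM in 2-cell libraries, against 873, 1046 and 1375 FPKM in zygotes (log2 fold change -6.76 ± 0.39 SE, adjusted p = 6.9e-05). Zar1, an oocyte RNA-binding protein that holds maternal RNA in store, fell to 8.26 and 10.8 FPKM in 2-cell libraries, against 819, 672 and 1041 FPKM in zygotes (-6.57 ± 0.34). Crabp2, a retinoic acid carrier, stood at 3.49 and 0.411 FPKM in 2-cell libraries against 270, 283 and 143 FPKM in zygotes. No library of one stage reached the range of the other in these genes. Oas1e, Ooep, Rgs2 (which shortens G protein signals), F8a and E330021D16Rik fell too, with log2 fold changes of -6.13, -6.04, -5.82, -5.74 and -5.59. Tcea3, Ninj2, Smim11 and Plac1l were listed at 0 in both 2-cell libraries, with 33.9 to 63.1 FPKM of Tcea3 and 25.7 to 59.6 FPKM of Ninj2 in zygotes. They were 4 of 145 called genes listed at 0 in both 2-cell libraries. Such genes passed the filter on their zygote values alone, so only a fall could be called.

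By abundance, one gene dominated the zygotes. Zbed3 (chr13:96095192-96107796, plus strand), a zinc finger protein that associates with the subcortical maternal complex, measured 55848, 52500 and 76288 FPKM in zygotes, 13.4 to 18.8% of the summed FPKM. In 2-cell libraries Zbed3 measured 2272 and 2000 FPKM, 0.579 and 0.511% of the sum (log2 fold change -5.10 ± 0.29 SE, adjusted p = 6.9e-05). Bcl2l10, an inhibitor of apoptosis in oocytes, stood at 279 and 277 FPKM in 2-cell libraries against 9010, 8413 and 5378 FPKM in zygotes (-5.002 ± 0.28). Sap30, a subunit of the SIN3 deacetylase complex, stood at 324 and 276 FPKM against 2913, 3883 and 3772 FPKM (-3.81 ± 0.30). Tcl1, a co-activator of AKT kinase, fell less, by 1.65, and remained at 2019 and 1910 FPKM in 2-cell libraries. On the rising side, Rpl41, Gm11517, Gcsh, Taf9, Map1lc3b and Dppa5a were the most abundant called genes of the 2-cell embryo. Taf9, a component of TFIID, stood at 1528 and 1576 FPKM in 2-cell libraries against 251, 225 and 135 FPKM. Map1lc3b, an autophagosome protein, stood at 1288 and 1330 FPKM in 2-cell libraries against 48.8, 20.4 and 26.1 FPKM in zygotes. Without 2-cell replicate 1 or 2, Zbed3 (adjusted p = 0.14 and 0.17), Tcl1 (0.21 and 0.24) and Dppa5a (0.060 and 0.055) were no longer called.

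**Figure D2:**
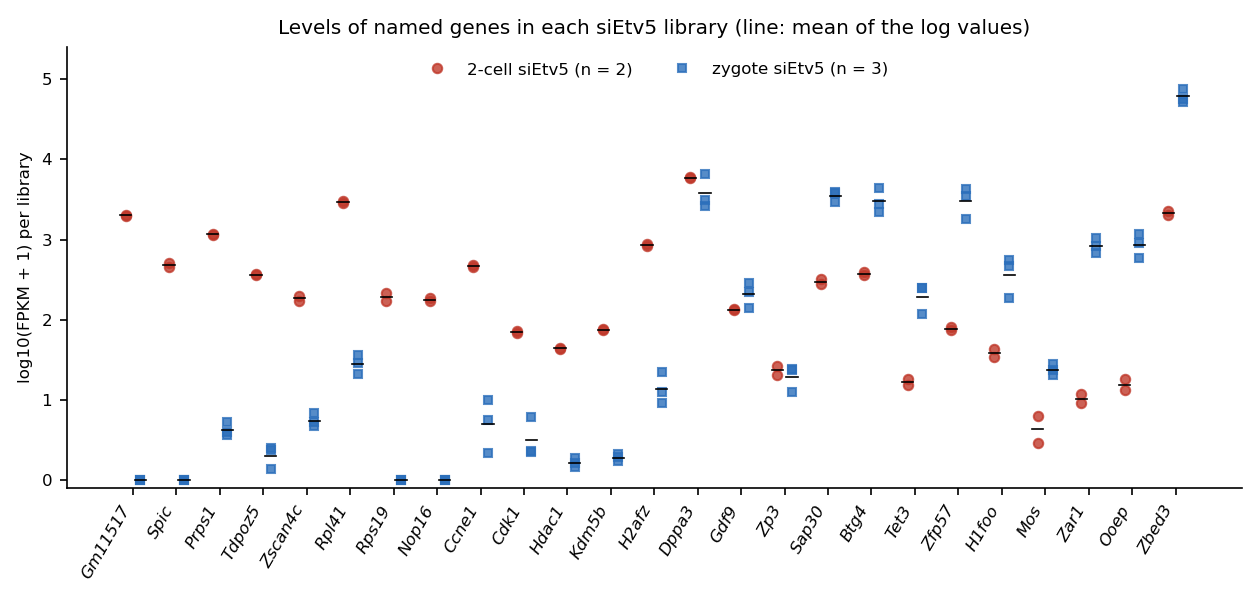
Level of 25 genes in each siEtv5 library on a log10 scale (FPKM plus 1), 2-cell libraries as circles (n = 2) and zygote libraries as squares (n = 3), lines at the mean of the log values. The stages are apart in most genes, while Dppa3 and Zp3 overlap, with 5806 and 5991 FPKM of Dppa3 in 2-cell libraries inside the zygote range of 2652 to 6490 FPKM.

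Most tested genes of a list known for a burst of transcription in 2-cell embryos were called higher under siEtv5. Of 65 genes in the list, 50 were in the annotation and 37 passed the filter, of which 32 were higher and 2 lower in 2-cell embryos, with a median log2 fold change of 4.81 against 0.40 for all genes tested. Another 11 were listed at 0 in all 5 libraries. The count of 32 was the same without any one library. Their RNA made up 1.75 and 1.94% of the summed FPKM in 2-cell libraries against 0.130, 0.152 and 0.103% in zygotes. The Zscan4 genes, whose proteins act at telomeres, were all called. Zscan4c held 169 and 200 FPKM in 2-cell libraries against 4.27, 5.804 and 3.74 FPKM in zygotes, and Zscan4f held 172 and 182 FPKM against 4.23, 0.654 and 3.05 FPKM. Paralogs of this family share sequence, so reads could be divided between them in either way. The windows of 250 bases before the start of both genes (Zscan4c chr7:11590844-11591093, plus strand; Zscan4f chr7:11983014-11983263, plus strand; mm9) are printed to show how alike the copies are, with CG dinucleotides in capitals. Over 227 aligned bases they differed at 1. The window of Tdpoz4 (chr3:93600070-93600319, plus strand), one of a cluster of BTB-domain genes on chromosome 3, holds no CG.
Zscan4c: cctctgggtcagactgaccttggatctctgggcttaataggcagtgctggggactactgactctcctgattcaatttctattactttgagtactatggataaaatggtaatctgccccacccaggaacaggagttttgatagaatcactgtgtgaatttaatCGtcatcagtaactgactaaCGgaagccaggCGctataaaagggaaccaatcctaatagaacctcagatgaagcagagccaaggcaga
Zscan4f: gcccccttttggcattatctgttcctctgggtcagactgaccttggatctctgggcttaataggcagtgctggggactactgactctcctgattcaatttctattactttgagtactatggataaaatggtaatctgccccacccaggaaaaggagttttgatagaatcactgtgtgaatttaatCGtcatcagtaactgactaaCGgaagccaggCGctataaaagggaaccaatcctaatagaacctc
Tdpoz4: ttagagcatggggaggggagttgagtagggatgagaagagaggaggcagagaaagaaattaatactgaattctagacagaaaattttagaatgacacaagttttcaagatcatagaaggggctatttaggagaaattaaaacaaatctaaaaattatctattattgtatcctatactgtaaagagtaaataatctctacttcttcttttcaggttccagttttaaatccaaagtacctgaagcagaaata

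From 250 bases before to 50 bases after the start, the median ratio of observed to expected CG was 0.162 in the 37 genes against 0.788 in all tested genes, and the sequence TATAAA lay within 50 bases before the start in 10.8% of them against 1.75% of all tested genes. Tdpoz4 measured 178 and 162 FPKM in 2-cell libraries against 1.49, 1.25 and 0 FPKM in zygotes. Gm9125 was listed at 0 in every zygote library and reached 239 and 257 FPKM in 2-cell libraries. Usp17lb, of a deubiquitinase family, stood at 511 and 478 FPKM in 2-cell libraries against 1.16, 4.92 and 1.79 FPKM (log2 fold change 6.99 ± 0.49 SE). Zfp352, a zinc finger gene, stood at 250 and 360 FPKM against 3.74, 8.94 and 4.18 FPKM (5.34 ± 0.43). The 2 genes that fell were Zfp750 and Dux. Dux, the homeobox factor that activates many genes of this list, measured 2.03 and 1.25 FPKM in 2-cell libraries against 20.2, 8.05 and 5.52 FPKM in zygotes (log2 fold change -2.23). It was not called without 2-cell replicate 1 or 2 (adjusted p = 0.094 and 0.13), and it overlaps another RefSeq entry on the same strand, whose reads cannot be separated from its own.

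Most genes of the cytosolic ribosome were called higher. Of 80 cytosolic ribosomal protein genes tested, 71 were higher, none was lower, and the median log2 fold change was 3.94. Together they held 2.80 and 2.79% of the summed FPKM in 2-cell libraries against 0.134, 0.117 and 0.0932% in zygotes. Rpl41 stood at 2817 and 2991 FPKM in 2-cell libraries against 28.1, 35.6 and 19.9 FPKM in zygotes (6.42 ± 0.32 SE, adjusted p = 6.3e-05). Rps26 stood at 372 and 536 FPKM in 2-cell libraries against 0, 0 and 2.69 FPKM, and Rps19 at 171 and 215 FPKM while listed at 0 in all zygotes. The 2-cell libraries disagreed in Rpl30, at 49.0 FPKM in one and 0 in the other, and it was not called. Rpl30 overlaps Gm12191 on the same strand. Ribosomal protein genes have many processed pseudogenes with near-identical sequence, so how reads were divided could change single values. The ETS-type sequence CCGGAAG, searched on both strands in the window from 250 bases before to 50 bases after the start, was found in 42.5% of ribosomal protein genes, 19.1% of all tested genes and 11.5% of all annotated promoters, and in 0% of the 37 2-cell genes. Shares varied among the other lists, with 41.9% of proteasome genes, 41.7% of DNA replication genes, 22.2% of oxidative phosphorylation subunits and 0% of glycolysis genes. A high share did not need a rise, since 29.2% of DNA replication genes were called higher against 37.9% of all genes. A match is a description of the letters and not a binding site. Windows of 250 bases before the start are shown for 3 ribosomal genes and for Prps1, with the match in capitals: Rps26 chr10:128063563-128063812, minus strand, Rpl41 chr10:127986225-127986474, minus strand, Rps10 chr17:27772188-27772437, minus strand and Prps1 chrX:136990892-136991141, plus strand (mm9).
Rps26: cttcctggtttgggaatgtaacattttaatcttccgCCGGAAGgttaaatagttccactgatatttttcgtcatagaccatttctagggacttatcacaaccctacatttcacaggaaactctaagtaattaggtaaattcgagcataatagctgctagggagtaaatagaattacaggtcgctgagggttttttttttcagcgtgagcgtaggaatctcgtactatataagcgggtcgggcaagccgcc
Rpl41: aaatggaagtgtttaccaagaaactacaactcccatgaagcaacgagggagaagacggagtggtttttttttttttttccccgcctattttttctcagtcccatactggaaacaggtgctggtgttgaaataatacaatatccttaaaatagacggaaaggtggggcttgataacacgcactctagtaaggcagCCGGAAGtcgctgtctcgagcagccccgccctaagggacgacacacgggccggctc
Rps10: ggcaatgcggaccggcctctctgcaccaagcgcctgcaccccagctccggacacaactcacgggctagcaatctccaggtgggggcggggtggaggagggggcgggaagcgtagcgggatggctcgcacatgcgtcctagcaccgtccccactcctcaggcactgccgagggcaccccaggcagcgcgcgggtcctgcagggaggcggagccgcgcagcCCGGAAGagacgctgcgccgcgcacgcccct
Prps1: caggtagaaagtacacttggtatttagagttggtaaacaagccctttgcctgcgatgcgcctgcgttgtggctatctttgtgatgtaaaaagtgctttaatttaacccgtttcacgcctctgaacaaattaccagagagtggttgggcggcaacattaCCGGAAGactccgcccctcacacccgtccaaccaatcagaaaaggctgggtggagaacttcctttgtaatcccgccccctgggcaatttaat

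Counted from the start, the first base of the match lay at -214 in Rps26, -56 in Rpl41, -31 in Rps10 and -92 in Prps1. Over all tested genes the share with the match was 20.2% among those called higher, 15.95% among those called lower and 20.02% among those not called, and was 17.6% in the 278 genes that rose by more than 5 on the log2 scale. The share among rising genes was thus near that of uncalled genes.

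Most factors that build ribosomes were also called higher. Of 68 tested genes for ribosome biogenesis and RNA polymerase I, 53 were higher (30 without 2-cell replicate 1) and only Utp18 was lower, with a median of 2.37. Nop2, an rRNA methyltransferase, stood at 95.4 and 96.9 FPKM in 2-cell libraries against 0.201, 0.506 and 0 FPKM in zygotes (6.14 ± 0.31 SE). Nop16 was listed at 0 in all zygotes and measured 169 and 183 FPKM in 2-cell libraries. Polr1b, a core subunit of RNA polymerase I, stood at 24.6 and 30.9 FPKM against 0.745, 0.360 and 0.566 FPKM (4.01 ± 0.28). CCGGAAG lay in 41.2% of these promoters. Of 42 translation initiation factors, 27 were higher (16 without either 2-cell library) and 3 were lower. Eif3a stood at 111 and 100.98 FPKM in 2-cell libraries against 2.32, 3.06 and 1.89 FPKM in zygotes (4.74 ± 0.29). The 3 lower genes were Eif1b, Eif1ax and Eif4g3. Eif1b fell to 57.5 and 57.8 FPKM in 2-cell libraries, against 860, 494 and 1004 FPKM in zygotes (-3.95 ± 0.38). Utp18 was not called without 2-cell replicate 1 or 2 (adjusted p = 0.051 and 0.14), Eif4g3 without replicate 1 (0.096) and Eif1ax without replicate 2 (0.092).

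**Figure D3:**
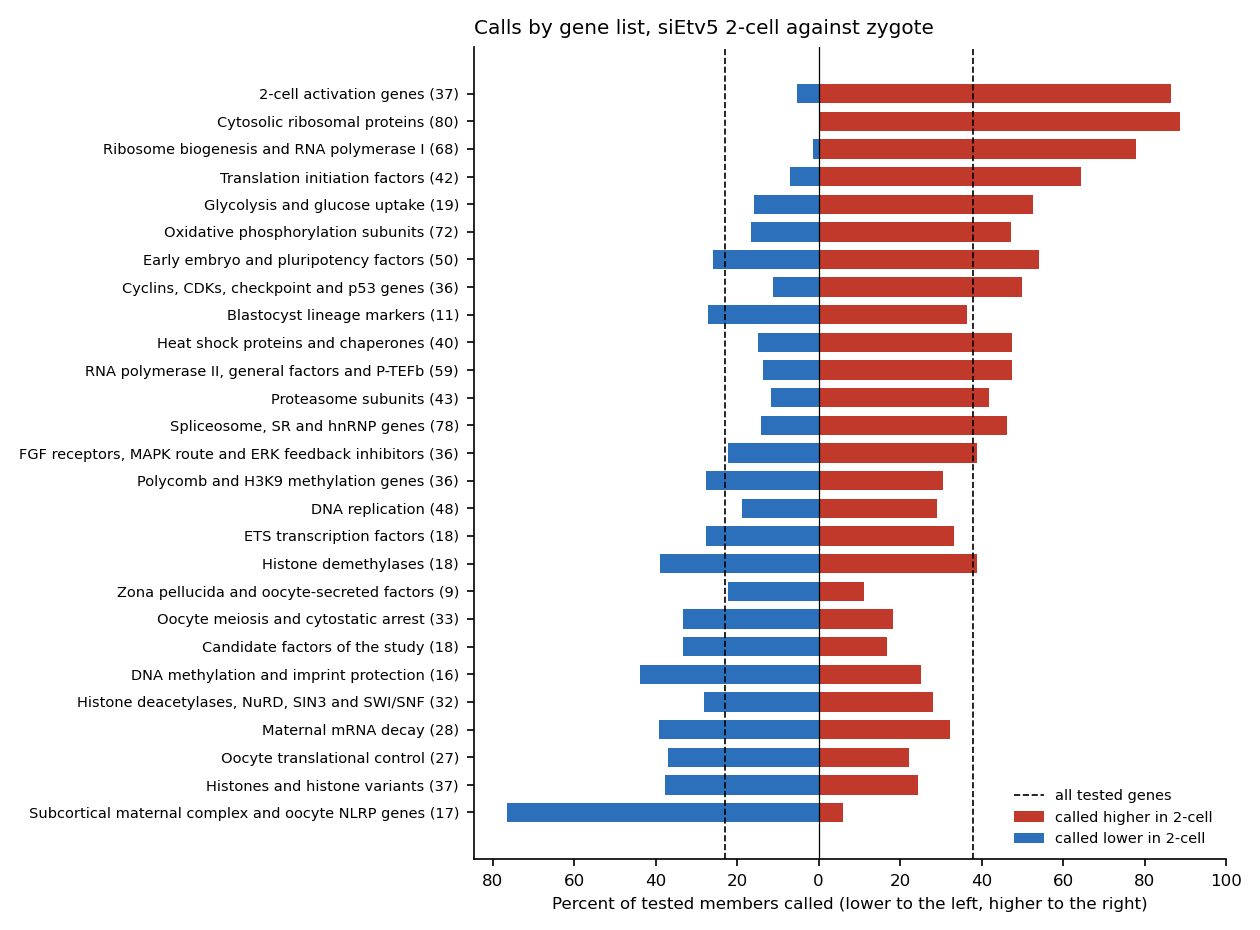
Share of the tested members of each gene list called higher (red, to the right) or lower (blue, to the left) in siEtv5 2-cell embryos, with the number tested in parentheses and lists ordered by median change. Dashed lines mark the shares over all tested genes, 37.9% higher and 23.0% lower. The lists of 2-cell genes and of ribosomal proteins lie far beyond the right line, and the subcortical maternal complex far beyond the left one.

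Genes of transcription, RNA processing and the proteasome were called higher more often than lower, as were all tested genes. For the RNA polymerase II, spliceosome and proteasome lists the shares higher were 47.5, 46.2 and 41.9%, against 37.9% over all genes. The shares lower were 13.6, 14.1 and 11.6%, against 23.0%. Of 59 genes for RNA polymerase II, general factors and P-TEFb, 28 were higher and 8 lower (16 and 3 without 2-cell replicate 1, 15 and 3 without replicate 2). Cdk9, the kinase of P-TEFb that releases paused polymerase, stood at 85.6 and 85.4 FPKM in 2-cell libraries against 4.33, 3.46 and 3.39 FPKM in zygotes (3.95 ± 0.27 SE). Hexim1, its inhibitor, stood at 40.6 and 56.8 FPKM against 0, 0.284 and 1.87 FPKM (4.77 ± 0.53). Polr2h and Supt4a rose by 4.45 and 4.26. Taf3, Polr2c and the oocyte TBP relative Tbpl2 fell, with log2 fold changes of -1.76, -1.44 and -1.65. Polr2c, which overlaps Dok4 on the opposite strand, was not called without 2-cell replicate 1 or 2 (adjusted p = 0.12 and 0.15). Of 78 spliceosome, SR and hnRNP genes, 36 were higher and 11 lower (15 and 4 without either 2-cell library). Snrpd2, a core snRNP protein, was listed at 0 in all zygotes and measured 133 and 144 FPKM in 2-cell libraries. Prpf6, which joins the tri-snRNP, fell by 2.91. Of 43 proteasome genes, 18 were higher and 5 lower (11 higher without 2-cell replicate 1 and 10 without replicate 2). Psmb5, a catalytic subunit whose gene overlaps Mir686 on the same strand, stood at 194 and 170 FPKM in 2-cell libraries against 10.3, 7.88 and 6.31 FPKM in zygotes. Psmg1, an assembly chaperone, stood at 0.208 and 3.07 FPKM against 53.1, 43.7 and 51.4 FPKM.

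RNAs of the subcortical maternal complex and the oocyte NLRP genes formed the list with the largest share of falls. This complex, built around Nlrp5, Ooep, Tle6 and Khdc3, is laid down in the oocyte and needed for the first cleavages. Of 17 genes tested, 13 were lower (5 without either 2-cell library), 1 was higher, and the median was -2.18. Ooep fell to 17.3 and 12.2 FPKM in 2-cell libraries, against 905, 1177 and 588 FPKM in zygotes (-6.04 ± 0.37 SE, adjusted p = 8e-05). Nlrp4f stood at 9.83 and 14.8 FPKM in 2-cell libraries against 164, 400.03 and 184 FPKM in zygotes (-4.40 ± 0.48). Zygote replicate 2 was the highest of the 3 in Nlrp4f, Nlrp9b and Nlrp4a. Nlrp5 fell less, by 1.80, to 7.23 and 5.82 FPKM, against 18.1, 31.0 and 16.498 FPKM in zygotes. Without 2-cell replicate 1 or 2, Nlrp5 (adjusted p = 0.068 and 0.090) and Tle6 (0.18 and 0.29) were not called, and Nlrp4a was not called without replicate 1 (0.053). Nlrp12 alone was higher, at 5.55 and 2.75 FPKM in 2-cell libraries and listed at 0 in zygotes.

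Other oocyte products were retained to very different degrees. Among 9 tested genes of the zona pellucida and oocyte-secreted list, Fgf8 and Bmp15 were lower (22.2%) and Kitl was higher (11.1%). Over all genes the shares were 23.0 and 37.9%. Kitl is also a member of the cumulus and granulosa list below, so its rise is not that of an oocyte product. Bmp15, a growth factor of the oocyte, stood at 82.3 and 102 FPKM in 2-cell libraries against 743, 1593 and 834 FPKM in zygotes (-3.69 ± 0.42 SE). Gdf9, its partner, was not called, at 133 and 134 FPKM in 2-cell libraries against 221, 285 and 138 FPKM in zygotes (-0.89 ± 0.35, adjusted p = 0.063). Zp3 overlapped between the stages, at 25.8 and 19.7 FPKM in 2-cell libraries against 23.6, 22.7 and 11.6 FPKM in zygotes. Of 33 genes of oocyte meiosis and cytostatic arrest, 11 were lower (7 without 2-cell replicate 1) and 6 higher (3 without 2-cell replicate 2). Shares in that list were 33.3% lower and 18.2% higher, against 23.0 and 37.9% over all genes. Mos, a kinase of the metaphase arrest of eggs, stood at 1.91 and 5.403 FPKM in 2-cell libraries against 26.9, 23.0 and 19.5 FPKM in zygotes (-2.69 ± 0.39). Pde3a, which keeps cAMP low in the maturing oocyte, stood at 1.50 and 1.55 FPKM against 19.97, 15.0 and 22.6 FPKM (-3.17 ± 0.31). In the other direction, Cdk1, the mitotic kinase, stood at 68.2 and 71.8 FPKM in 2-cell libraries against 1.26, 5.12 and 1.35 FPKM in zygotes (4.24 ± 0.51). Cdc25c, the phosphatase that activates it, stood at 49.1 and 43.0 FPKM against 0.359, 1.04 and 0.628 FPKM (4.62 ± 0.31).

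RNAs encoding the control and decay of maternal messages moved in both directions. The shares lower were 37.0% for translational control and 39.3% for decay, against 23.0% over all genes. The shares higher were 22.2 and 32.1%, against 37.9%. Of 27 genes of oocyte translational control, 10 were lower (6 without 2-cell replicate 1 and 5 without replicate 2) and 6 were higher. Pabpc1l, the poly(A)-binding protein of the egg, fell to 0.672 and 1.67 FPKM in 2-cell libraries, against 64.2, 43.6 and 53.7 FPKM in zygotes (-4.86 ± 0.33 SE). Dazl fell to 10.6 and 10.5 FPKM, against 137, 134 and 117 FPKM in zygotes (-3.75 ± 0.27). Cpeb2, Fmr1 and Igf2bp1 were higher, by 2.72, 3.18 and 2.21, and Cpeb2 overlaps Gm7854. Of 28 decay genes, 11 were lower (6 without either 2-cell library) and 9 were higher. Btg4, the adaptor that brings CCR4-NOT to maternal RNA, stood at 358 and 388 FPKM in 2-cell libraries against 2761, 4399 and 2196 FPKM in zygotes (-3.27 ± 0.35). Pabpn1l, which acts in the same pathway, stood at 0.779 and 0 FPKM against 140.03, 104 and 57.1 FPKM (-6.29 ± 0.43). Cnot6l, the deadenylase of the maternal complex, fell by 2.28 but was not called without 2-cell replicate 1 or 2 (adjusted p = 0.081 and 0.073). Zcchc11, a terminal uridylyltransferase, was listed at 0 in zygotes and measured 8.93 and 7.80 FPKM in 2-cell libraries. Ythdf2, a reader of methylated adenosine, stood at 158 and 161 FPKM in 2-cell libraries against 31.7, 19.9 and 37.1 FPKM in zygotes (2.17 ± 0.36).

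In the DNA methylation list, 7 of 16 genes were lower (3 without 2-cell replicate 1) and 4 were higher. Zfp57, which protects imprints, fell to 73.7 and 79.9 FPKM in 2-cell libraries, against 3524, 1806 and 4224 FPKM in zygotes (-5.54 ± 0.42 SE, adjusted p = 0.00013). Tet3, the dioxygenase of the zygote, stood at 14.4 and 17.5 FPKM in 2-cell libraries against 247, 118 and 250 FPKM in zygotes (-3.79 ± 0.42). Tet1 was higher, at 9.66 and 8.99 FPKM against 0.499, 0.910 and 0.528 FPKM (2.46 ± 0.27). Dppa3, which shields maternal DNA from TET3, was not called (0.38 ± 0.43, adjusted p = 0.48). Among 37 histone genes, 14 were lower (8 without 2-cell replicate 1) and 9 higher (5 without either 2-cell library), with a median of -0.66. The histone shares were 37.8% lower and 24.3% higher. Messages of replication-dependent histones lack a poly(A) tail, and the libraries were primed with oligo-dT. H1foo, the oocyte linker histone, fell to 33.5 and 42.3 FPKM in 2-cell libraries, against 466, 555 and 185 FPKM in zygotes (-3.50 ± 0.48), and was not called without 2-cell replicate 1 (adjusted p = 0.051). H2afz, the variant found at active promoters, stood at 839 and 877 FPKM in 2-cell libraries against 21.4, 8.19 and 11.6 FPKM in zygotes (5.71 ± 0.40).

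Chromatin modifiers included pairs of related genes that moved in opposite directions. Hdac1 rose to 42.4 and 43.8 FPKM in 2-cell libraries, against 0.619, 0.876 and 0.468 FPKM in zygotes (4.54 ± 0.27 SE), while Hdac2 fell to 21.3 and 20.4 FPKM, against 58.2, 52.7 and 79.1 FPKM (-1.80 ± 0.33). Suv39h1 rose by 3.19 and Suv39h2 fell by 3.14, both writers of methylated H3K9, although Suv39h2 overlaps Dclre1c on the opposite strand. Hdac2 was not called without 2-cell replicate 1 or 2 (adjusted p = 0.057 and 0.059). Cbx3 rose to 86.8 and 98.3 FPKM in 2-cell libraries, against 0.245, 0.231 and 0 FPKM in zygotes, while Cbx1 fell to 21.1 and 25.9 FPKM, against 308, 248 and 358 FPKM. Kdm5b, which removes H3K4 methylation, stood at 75.7 and 73.2 FPKM in 2-cell libraries against 0.957, 1.10 and 0.730 FPKM in zygotes (5.08 ± 0.27). Kdm6b, which removes H3K27 methylation, stood at 3.17 and 3.71 FPKM against 30.9, 26.3 and 40.6 FPKM (-3.13 ± 0.33). Over the lists, 11 of 36 polycomb and H3K9 genes were higher (7 without 2-cell replicate 2) and 10 lower (6 without 2-cell replicate 1). Of 32 genes of deacetylase, NuRD, SIN3 and SWI/SNF complexes, 9 were higher and 9 lower (2 lower without 2-cell replicate 1 and 3 without replicate 2). Of 18 histone demethylases, 7 were higher and 7 lower (3 lower without 2-cell replicate 1). Near-equal numbers in both directions thus stood beside shares of 37.9 and 23.0% over all genes.

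Of 36 cyclins, CDKs, checkpoint and p53 genes, 18 were higher and 4 lower. Ccne1, the G1/S cyclin, stood at 479 and 455 FPKM in 2-cell libraries against 8.92, 1.19 and 4.70 FPKM in zygotes (6.31 ± 0.61 SE). Chek2 rose by 5.13, while Chek1 fell by 2.14. Of 48 DNA replication genes, 14 were higher and 9 lower (6 and 2 without 2-cell replicate 1, 7 and 4 without replicate 2). Of 72 oxidative phosphorylation subunits, 34 were higher (19 without 2-cell replicate 1) and 12 lower (7 without either 2-cell library). Cox7c, a subunit of complex IV, stood at 256 and 259 FPKM in 2-cell libraries against 0, 2.62 and 0 FPKM in zygotes. Ndufab1 fell by 4.58. Of 19 glycolysis genes, 10 were higher and 3 lower. Ldha stood at 22.8 and 14.0 FPKM in 2-cell libraries against 0.484, 0 and 0.181 FPKM in zygotes (3.80 ± 0.33). Ldhb, its oocyte counterpart, stood at 63.8 and 63.4 FPKM against 417, 494 and 223 FPKM (-2.74 ± 0.37). The glucose transporter Slc2a3 rose by 3.45 and Slc2a1 fell by 1.63. Of 40 chaperone genes, 19 were higher (7 without 2-cell replicate 1 and 10 without replicate 2) and 6 lower. Hspa8 stood at 453 and 385 FPKM in 2-cell libraries against 22.9, 13.2 and 6.61 FPKM in zygotes (4.67 ± 0.46). Hspa1a, an early marker of mouse genome activation, stood at 14.3 and 8.69 FPKM against 0.451, 0 and 2.69 FPKM (2.59 ± 0.62). Without 2-cell replicate 1 or 2, Hspa1a (adjusted p = 0.15 and 0.097), Chek1 (0.084 and 0.054) and Slc2a1 (0.19 and 0.12) were not called.

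Transcription factors of the early embryo were split between an incoming and an outgoing set. Of the tested members, 54.0% were higher and 26.0% lower, against 37.9 and 23.0% over all genes. Of 50 tested, 27 were higher and 13 lower (8 lower without 2-cell replicate 1). The homeobox genes of the Obox cluster on chromosome 7 went both ways. Obox6 stood at 519 and 563 FPKM in 2-cell libraries against 0, 0 and 0.744 FPKM in zygotes (8.61 ± 0.38 SE), and Obox3 at 107 and 124 FPKM against 0.617, 0.545 and 0.458 FPKM (6.04 ± 0.27). Obox1 fell to 44.9 and 25.8 FPKM in 2-cell libraries, against 693, 1694 and 807 FPKM in zygotes (-5.08 ± 0.49), and Obox2 and Obox5 fell too (-4.25 and -2.99). Obox5 was not called without 2-cell replicate 1 or 2 (adjusted p = 0.059 and 0.053). Nobox and Lhx8, factors of the growing oocyte, fell too (-4.50 and -4.83). Klf5, a factor of the inner cell mass and trophectoderm, stood at 64.3 and 60.4 FPKM in 2-cell libraries against 1.33, 1.07 and 2.64 FPKM in zygotes (4.37 ± 0.37). Tead4, needed for trophectoderm, was listed at 0 in zygotes and measured 10.5 and 12.5 FPKM in 2-cell libraries.

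Within the ETS family to which the siRNA target belongs, 18 genes were tested, 6 were higher and 5 lower (3 lower without 2-cell replicate 2). Summed over its members, the family held 0.174 and 0.184% of the summed FPKM in 2-cell libraries against 0.0376, 0.0393 and 0.0324% in zygotes. This sum follows abundant members: Spic alone measured 460 and 510 FPKM in 2-cell libraries and was listed at 0 in zygotes. By calls, 33.3% were higher and 27.8% lower, near the 37.9 and 23.0% over all genes. Spic and Gabpa were the most abundant of the rising members. Gabpa, which binds GGAA sites at housekeeping promoters, stood at 78.5 and 81.2 FPKM in 2-cell libraries against 0.152, 0.190 and 0 FPKM in zygotes (6.01 ± 0.27 SE). It overlaps Atp5j on the opposite strand and the counting is not stated to use strand, so its reads cannot be separated from those of Atp5j. Its partner Gabpb2 rose by 2.96, and Gabpb1 was not called, at 36.2 and 33.3 FPKM in 2-cell libraries against 27.8, 13.7 and 24.5 FPKM in zygotes. Etv6 and Etv3, repressors of the family, rose by 2.04 and 2.62. Ets2 fell to 1.84 and 0.785 FPKM in 2-cell libraries, against 11.9, 14.6 and 13.7 FPKM in zygotes (-2.86 ± 0.33), and Ehf, Elf2, Erf and Elk4 fell too (-3.46, -1.57, -1.55 and -1.13), of which Elf2 and Elk4 were not called without 2-cell replicate 2 (adjusted p = 0.078 and 0.083). Etv1, a close relative of Etv5, was not called, at 3.33 and 2.81 FPKM in 2-cell libraries against 5.12, 7.48 and 4.17 FPKM in zygotes.

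ETV5 is known as a target of FGF signalling. Of 36 genes of that route, 14 were higher (9 without either 2-cell library) and 8 lower (5 without either). Those shares, 38.9% higher and 22.2% lower, were near the 37.9 and 23.0% over all genes. Fgf4 was listed at 0 in all zygotes and measured 26.8 and 25.9 FPKM in 2-cell libraries. Fgf8 stood at 0.624 and 0 FPKM in 2-cell libraries against 27.8, 24.5 and 62.5 FPKM in zygotes (-4.95 ± 0.51 SE). Map2k1 and Mapk3, kinases that relay the signal, fell (-3.14 and -2.52). The feedback inhibitors differed: Spry2 stood at 58.2 and 72.3 FPKM in 2-cell libraries against 0.289, 0.446 and 0 FPKM in zygotes (5.56 ± 0.31), whereas Spry1 and Spry4 fell (-2.67 and -1.63), the second not called without 2-cell replicate 1 or 2 (adjusted p = 0.16 and 0.15). Dusp6 and Dusp5, phosphatases of ERK, rose by 2.30 and 2.55.

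Of 18 tested candidate factors of the study, 3 were higher (Etv5, Usf1 and Srebf2) and 6 lower (Usf2, Arntl, Klf7, Max, Nfya and Mlxip). Those were 16.7 and 33.3%, against 37.9 and 23.0% over all genes. Usf2 fell to 0.648 and 0.588 FPKM in 2-cell libraries, against 29.2, 16.3 and 16.3 FPKM in zygotes (-3.84 ± 0.32 SE). Usf1 stood at 51.0 and 46.9 FPKM in 2-cell libraries against 28.2, 7.47 and 11.02 FPKM in zygotes (1.54 ± 0.50, adjusted p = 0.035). Without 2-cell replicate 1, Usf1 (adjusted p = 0.21), Srebf2 (0.089), Klf7 (0.12) and Mlxip (0.099) were not called. Without 2-cell replicate 2, Usf1 (0.18), Klf7 (0.11) and Mlxip (0.093) were not, and Usf1 and Srebf2 also lost their calls without zygote replicate 2 (0.064 and 0.076) or 3 (0.094 and 0.086). Mlx, the target of the other knockdown used below, was not called, at 4.26 and 4.45 FPKM against 4.18, 3.61 and 2.46 FPKM with Psmc3ip overlapping it, and neither was Rfx1, at 4.39 and 4.94 FPKM against 7.18, 2.09 and 5.48 FPKM.

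Markers of other cells that could have entered the samples were low but not all absent. Cumulus cells surround the egg, and their markers Ptx3 and Amh were listed at 0 in all 5 libraries. The summed level of 6 such markers was 11.7 and 16.1 FPKM in 2-cell libraries against 6.36 to 8.39 FPKM in zygotes. Of 19 genes of the longer cumulus and granulosa list, 5 passed the filter: Tnfaip6, Amhr2, Gja1 and Kitl were higher and Cyp19a1 lower. Amhr2, Gja1 and Tnfaip6, which granulosa cells also express, were listed at 0 in zygotes. They measured 25.5 and 24.9, 40.2 and 48.9, and 8.12 and 13.7 FPKM in 2-cell libraries. They passed the filter on these 2-cell values alone, so only a rise could be called. The siCtrl 2-cell libraries held them too, with 28.3, 66.1 and 38.4 FPKM of Amhr2 and 46.0, 52.1 and 45.9 FPKM of Gja1. Tnfaip6 had 15.7, 9.72 and 11.5 FPKM there. Of 6 sperm markers, Prm1, Tnp2 and Akap4 were listed at 0, and the sum was 4.89 and 14.0 FPKM in 2-cell libraries against 9.88 to 35.1 FPKM in zygotes. Of 7 tested sperm and spermatid genes, 5 were higher (2 without 2-cell replicate 1 and 3 without replicate 2) and Prm2 was lower. That list held 20 genes, and Tnp1, 1 of the 5, was at 0 in zygotes and passed the filter on its 2-cell values alone. Prm2 stood at 2.08 and 0 FPKM in 2-cell libraries against 34.4, 23.6 and 8.98 FPKM in zygotes. The blood markers Hba-a1 and Ptprc were listed at 0, whereas Hba-a2, a globin, measured 43.5 and 39.3 FPKM in 2-cell libraries and was listed at 0 in zygotes. Hba-a2 overlaps Hba-a1 on the same strand, so a value of 0 for Hba-a1 does not show its absence. In siCtrl 2-cell libraries Hba-a2 measured 30.7, 71.4 and 39.6 FPKM. Prm2 was not called without 2-cell replicate 2 (adjusted p = 0.072). What part other cells had in any list was not tested.

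Features of the genes themselves went with the share called higher. Short transcripts rose more often: of 1090 genes with under 1 kb of transcript, 47.0% were higher and the median change was 1.33, against 33.8% and 0.31 in the 2763 genes of 4 kb or more. The siCtrl transition gave medians of 1.23 and -0.12 for these classes. Lower calls did not follow length in one direction. They made up 20.5% under 1 kb, 25.8% at 1 to 2 kb, 24.7% at 2 to 4 kb and 18.4% at 4 kb or more. By chromosome, the 391 tested genes of the X were higher in 49.4% and lower in 18.2%, with a median of 1.20 against 0.40 for all genes. In the siCtrl and siMlx transitions the X had medians of 0.77 and 0.63. Chromosome 6 was lowest, with a median of -0.10 and 32.2% higher. The part of amplification or of transcript length in these shares was not tested.

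To place the siEtv5 transition beside that of control embryos, the siCtrl libraries were fitted in the same way. The control transition shares no library with siEtv5 and gave 4104 genes higher (37.0%) and 2981 lower (26.9%), 63.9% in all, among 11094 tested. Across the 10441 genes tested in both, log2 fold changes correlated at r = 0.92. Of the genes higher under siEtv5, 83.3% were also higher under siCtrl, and of those higher under siCtrl, 86.3% were higher under siEtv5. For lower genes the shares were 84.2% and 70.8%. Only 2 genes were higher under siEtv5 and lower under siCtrl, and 4 the reverse.

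The difference between the transitions was tested itself, as the siEtv5 change minus the siCtrl change over 11 libraries. Of 11060 genes tested, limma called 11 with a higher change under siEtv5 (0.0995%) and 24 with a lower one (0.217%), 0.316% of genes in all, and 2001 had an unadjusted p under 0.05. Leaving out any one library moved at least 1 of the counts by over 1.5 times, except 2-cell siEtv5 replicate 1 (14 and 21). The counts were 294 and 417 without zygote siEtv5 replicate 2, 5 and 7 without zygote siCtrl replicate 3, and 8 and 6 without zygote siEtv5 replicate 3. The median difference was 0.03. Etv5 itself changed by 2.83 under siEtv5 and by 4.19 under siCtrl, a difference of -1.42 ± 0.41 SE that was not called (adjusted p = 0.14). The sign of this difference turned with the handling of low values, since Etv5 was at or near 0 in siEtv5 zygotes: it was 0.70 with a pseudocount of 0.1 and 2.28 with voom.

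**Figure D4:**
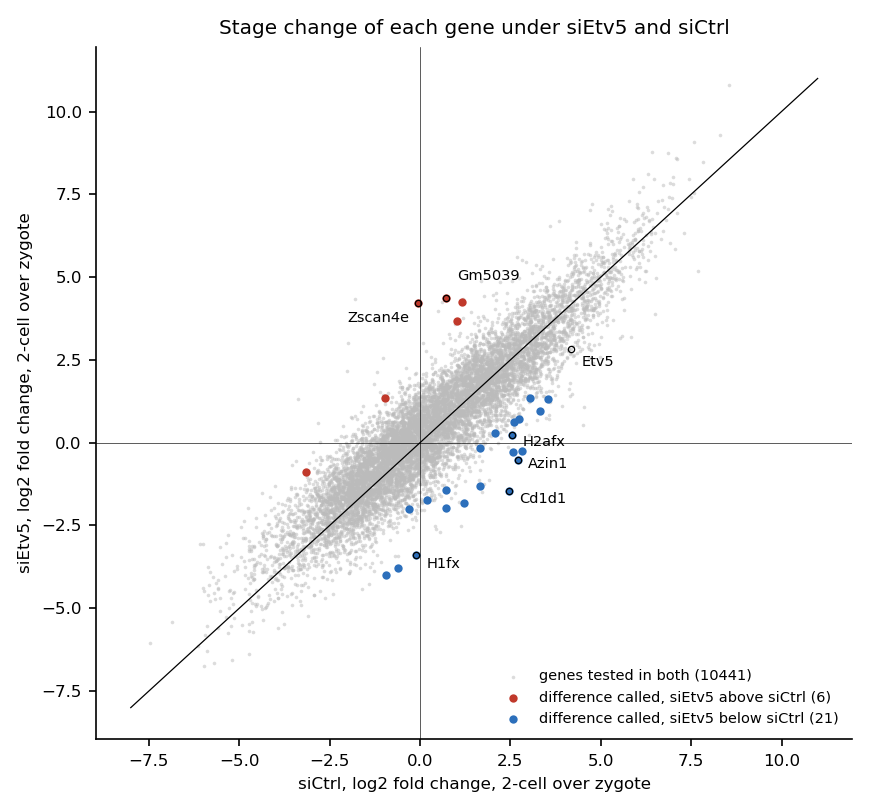
Log2 fold change between 2-cell and zygote libraries of each gene under siEtv5 (vertical axis) and under siCtrl (horizontal axis), for the 10441 genes tested in both, with the line of equal change. Coloured points are genes whose difference between the transitions was called. Most genes lie along the line, and Zscan4e and H1fx are among the few away from it.

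Genes that rose more under siEtv5 included Gpx2, a glutathione peroxidase (chr12:77893322-77896541, minus strand), at 24.5 and 24.4 FPKM in siEtv5 2-cell libraries against 0.771, 0 and 0 FPKM in siCtrl 2-cell libraries. Its zygote libraries were at 0 under siEtv5 and at 0, 0 and 0.372 FPKM under siCtrl (difference 4.39 ± 0.43 SE, adjusted p = 0.0015). Gm5039, a single-exon gene of the 2-cell list, stood at 208 and 199 FPKM in siEtv5 2-cell libraries against 24.1, 17.1 and 31.8 FPKM in siCtrl ones (difference 3.46 ± 0.46, adjusted p = 0.0087). Zscan4e stood at 42.3 and 40.2 FPKM against 0.919, 4.11 and 2.36 FPKM (4.16 ± 0.54, adjusted p = 0.0079). In these genes no siCtrl library came near the siEtv5 2-cell libraries. Cox8c was called at 4.46, on 8.81 and 9.70 FPKM in siEtv5 2-cell libraries with siCtrl ones listed at 0 and siCtrl zygotes at 0, 3.21 and 2.26 FPKM, and Ltb4r1 at 2.97.

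Genes whose change was lower under siEtv5 included Azin1, which stabilizes ornithine decarboxylase. Azin1 stood at 21.2 and 20.03 FPKM in siEtv5 2-cell libraries and 22.6, 24.99 and 27.4 FPKM in siEtv5 zygotes, while siCtrl gave 102, 91.0 and 82.9 FPKM at the 2-cell stage and 9.18, 12.3 and 11.6 FPKM in zygotes (difference -3.40 ± 0.34 SE, adjusted p = 0.0015). Cd1d1, which presents lipids to T cells, was listed at 0 in both siEtv5 2-cell libraries against 14.5, 11.1 and 15.8 FPKM in siCtrl ones (-4.02 ± 0.41). H1fx, a linker histone, stood at 3.15 and 1.84 FPKM in siEtv5 2-cell libraries against 24.9, 13.4 and 8.72 FPKM in siCtrl ones, but at 21.7, 35.5 and 35.1 FPKM in siEtv5 zygotes against 9.95, 18.1 and 12.2 FPKM in siCtrl zygotes (-3.46 ± 0.59). H2afx, the histone phosphorylated at DNA breaks, was not called within siEtv5 (0.22 ± 0.36) and differed from siCtrl by -2.51 (adjusted p = 0.044). Fkbp3 and Snord35b were also among the largest differences, at -3.92 and -3.39. Fkbp3 overlaps Prpf39 on the opposite strand, and Snord35b is a small RNA that poly(A) priming would not be made to capture, so both values are uncertain. Without 2-cell siEtv5 replicate 2 the calls were lost for Cox8c (adjusted p = 0.060), Fkbp3 (0.075), H1fx (0.12), H2afx (0.12) and Snord35b (0.10). The same 5 calls were lost without zygote siCtrl replicate 3 or zygote siEtv5 replicate 3.

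The 2-cell list is given by its counts and levels. Its median change was 4.81 under siEtv5 and 3.32 under siCtrl. The difference was positive in 35 of 37, against 51.7% of all genes, with a median of 1.25 against 0.03. The 37 were measured in the same libraries and include paralogs that share sequence, so they are not separate observations. Only Gm5039 and Zscan4e of the 37 were called. The summed share was 1.75 and 1.94% in siEtv5 2-cell libraries against 0.871, 0.730 and 1.154% in siCtrl ones, without overlap. In zygotes it was 0.103 to 0.152% under siEtv5 and 0.130 to 0.194% under siCtrl, with overlap. Zygote siCtrl replicate 1 had the 0.194%, against 0.130 and 0.140% in replicates 2 and 3. Gm9125, Tdpoz5 and Usp17lb, the members that rose most under siEtv5, were also highest in that library among siCtrl zygotes. Gm9125 measured 4.72 FPKM there and was listed at 0 in replicates 2 and 3. What part this library had in the siCtrl median was not tested. Ribosomal proteins had a median difference of -0.07. They had no called member among 81 tested, where 0.316% of all genes were called.

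The siMlx transition was used as a second comparison, and its test shares the 5 siEtv5 libraries with the test against siCtrl, so the outcomes are not independent. Of 10652 genes, 186 had a higher change under siEtv5 (1.75%) and 38 a lower one (0.357%), 2.10% in all, and 2235 had an unadjusted p under 0.05. Within siMlx, 35.4% of genes were higher and 29.1% lower in 2-cell embryos. Leaving out any one library moved at least 1 of the counts by over 1.5 times, except 2-cell siMlx replicate 1 (139 and 43). The counts were 17 and 11 without 2-cell siEtv5 replicate 2 and 428 and 233 without 2-cell siMlx replicate 3. Of the 37 2-cell genes, 18 were called higher and none lower, with a median difference of 2.56 against 0.11 for all genes. The count of 18 became 9 without zygote siEtv5 replicate 1 or zygote siMlx replicate 1, 10 without replicate 3 of either, 8 without 2-cell siEtv5 replicate 1 and 6 without 2-cell siEtv5 replicate 2. The siMlx 2-cell libraries differed widely among themselves, with 0.207, 0.417 and 0.716% of summed FPKM in the list. In the same order they held 404, 616 and 741 Mb, and 8904, 9889 and 10251 genes at 1 FPKM or more. The siEtv5 2-cell libraries held 792 and 811 Mb, and 11135 and 11096 such genes. What part depth had in the difference was not tested. Gm5039 had 3.43, 8.31 and 11.5 FPKM in siMlx 2-cell libraries (difference 5.56 ± 0.56 SE, adjusted p = 0.0012). Gm5662 had 867 and 985 FPKM in siEtv5 2-cell libraries against 62.3, 91.1 and 117 FPKM in siMlx ones (4.82 ± 0.75). Zscan4c differed by 4.26, Zscan4e by 4.32 and Zscan4f by 3.95.

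**Figure D5:**
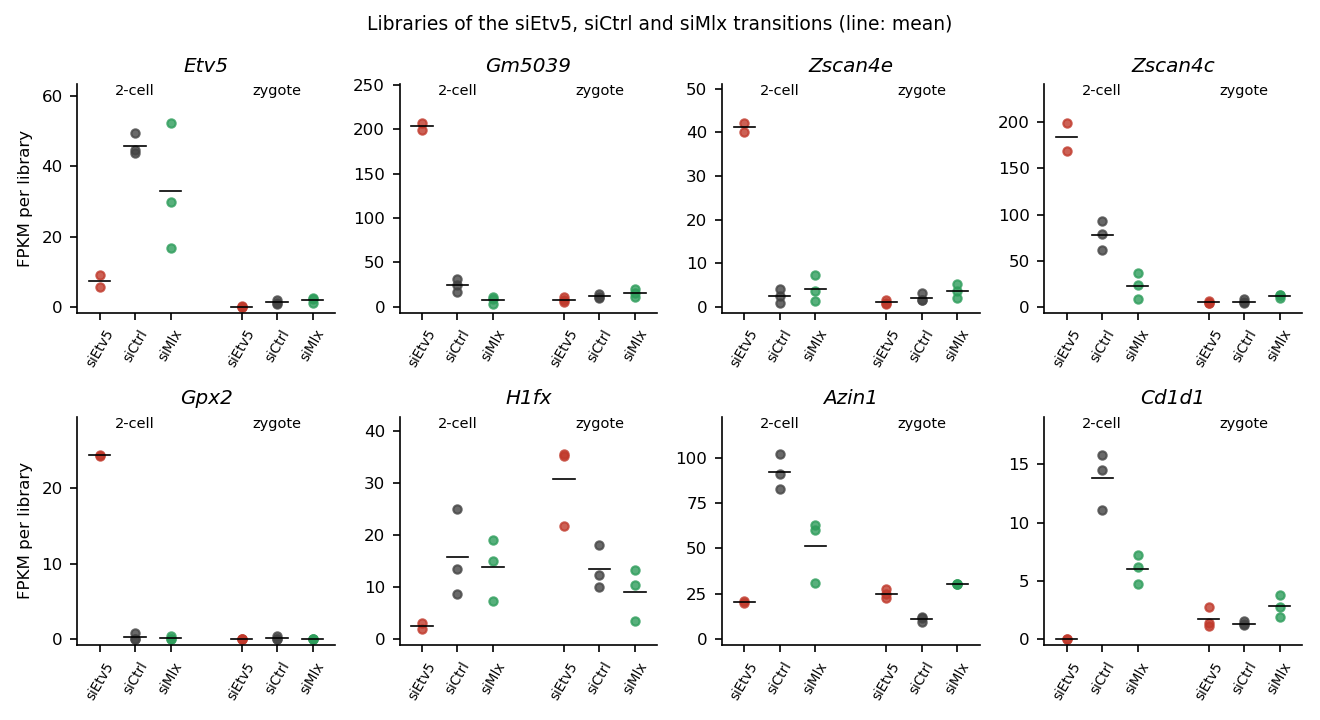
FPKM of 8 genes in each library of the siEtv5 (red), siCtrl (grey) and siMlx (green) transitions, 2-cell libraries on the left of each panel and zygote libraries on the right, with lines at the means. Gpx2 and Zscan4e are high in both siEtv5 2-cell libraries alone, and Etv5 and Azin1 are lower there than in every siCtrl 2-cell library.

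Other differences from siMlx were called in the subcortical maternal complex and oocyte NLRP list and in single genes. Of 17 genes in that list, 4 were called higher, where 1.75% of all genes were, and none lower. Its median difference was 2.27, with 15 of 17 positive. The median change was -2.18 under siEtv5 and -4.15 under siMlx. That count was not followed under the alternatives. Gpx2 differed by 4.19, on 0, 0 and 0.340 FPKM in siMlx 2-cell libraries. Cyb5, a carrier of electrons to fatty acid desaturases, stood at 31.6 and 40.5 FPKM in siEtv5 2-cell libraries against 0, 0 and 5.77 FPKM in siMlx ones (4.96 ± 0.85 SE), and fell within siEtv5, whose zygotes held 60.8, 89.9 and 50.5 FPKM. Snora30 and 0610040F04Rik differed by 5.16 and 4.65, the second overlapping Bhlhe40 on the opposite strand, and Snora30 being a small RNA that poly(A) priming is not made to capture. Spic, listed at 0 in every siEtv5 zygote, rose more than under siMlx by 2.29 (adjusted p = 0.039). In the other direction, Mir17hg, the host transcript of the miR-17 cluster, was listed at 0 in siEtv5 2-cell libraries against 14.7, 30.3 and 44.05 FPKM in siMlx ones (-4.61 ± 0.47), and siCtrl 2-cell libraries had 22.3, 0 and 0 FPKM. H1fx differed by -3.77. Bola2, a protein of iron-sulfur trafficking, rose in both, to 186 and 134 FPKM in siEtv5 2-cell libraries and 258, 269 and 252 FPKM in siMlx ones, and differed by -3.49. Mir3077 and Hnrnpab differed by -3.93 and -3.58, with the same limit for the microRNA Mir3077, and Hnrnpab overlaps Agxt2l2 on the opposite strand. Without 2-cell siEtv5 replicate 2 the calls against siMlx were lost for 0610040F04Rik, Bola2, Cd1d1, Cyb5, Gm5662, H1fx, Hnrnpab, Mir3077, Spic and Zscan4f (adjusted p of 0.063 to 0.19), and some of these 10 were also lost without other single libraries of either siRNA. The fall of Cyb5 within siEtv5 was not called without 2-cell replicate 1 or 2 (adjusted p = 0.20 and 0.11).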

How the data were processed

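RNA was measured by RNA-seq in siEtv5 embryos, 2 libraries of 2-cell embryos and 3 of zygotes, with 3 siCtrl and 3 siMlx libraries per stage for comparison. The other libraries of the series (siRfx1) were not used here. According to the labels and the study's methods, the authors amplified oligo-dT-primed cDNA, built unstranded libraries, aligned reads with STAR 2.5.2b to mm9 and estimated transcript levels with StringTie on RefSeq models (version 1.3.4 in the submitters' processing notes, 1.3.3b in the headers of the deposited files, and a later one in the study's methods). The deposited values are FPKM and coverage per transcript, as the authors' software wrote them. The study's own count-based tests were not used here.

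Transcript FPKM was added up per gene for 22619 named genes (976 of 29306 transcripts carried no gene name and were left out). Genes of different length are comparable in level on this scale, but no fragment counts are held, so precision is known only from the spread between libraries. Library depth was estimated from deposited coverage times transcript length. Each fit first rescaled its libraries by median ratios, taken over genes that reached 1 FPKM in every one of them, and dropped genes averaging under 1 FPKM. The log2(FPKM + 1) values then went into limma 3.58.1 (R 4.3.3, trend option). Calls required more than a 2-fold change and a p below 0.05 after Benjamini-Hochberg adjustment. Log2 fold changes are on this scale, which understates changes of low genes, while FPKM values are printed as deposited. Differences between transitions were interaction terms over 11 libraries. Single values were compared by two-sided exact permutation tests (scipy 1.17.1). The fits were tested on simulated data.

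Genes were named by these rules: Etv5; the 8 largest rises and 8 largest falls among called genes that averaged 5 FPKM or more, were above 0 in all 5 libraries and did not overlap between stages; the 4 most abundant called genes among those listed at 0 throughout one stage, for each stage; the 6 most abundant called genes in each direction; up to 3 called members with the largest change in each direction of a list; the candidate factors; and up to 5 called genes in each direction for each difference between transitions. Other named genes were chosen as examples after their values were seen. Members and lists were chosen with earlier results of these data known. Promoter sequence was read from the NCBIM37 (mm9) genome at RefSeq starts in the deposited models. One promoter window is not reported here. Exons of 2549 genes overlap another gene. Alternatives were the scaling, pseudocount, filter, voom on fragments estimated from coverage, a replicate block, a single fit with siCtrl and leaving out each library.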

Additional observations from a re-analysis of the deposited data

Results flagged for a closer look

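The change between zygotes and 2-cell embryos differed between siEtv5 and siCtrl in 11 genes named above, by the interaction term. The differences on the log2 scale, siEtv5 minus siCtrl, were 4.46 for Cox8c, 4.39 for Gpx2, 4.16 for Zscan4e, 3.46 for Gm5039 and 2.97 for Ltb4r1. They were -4.02 for Cd1d1, -3.92 for Fkbp3, -3.46 for H1fx, -3.40 for Azin1, -3.39 for Snord35b and -2.51 for H2afx. The calls of Cox8c, Fkbp3, H1fx, H2afx and Snord35b were lost under some alternative, with an adjusted p of up to 0.16, and those of the other 6 were not lost under any run here.

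Against siMlx the change differed in 17 named genes that were followed under the alternatives. The differences, siEtv5 minus siMlx, were 5.56 for Gm5039, 5.16 for Snora30, 4.96 for Cyb5, 4.82 for Gm5662, 4.65 for 0610040F04Rik, 4.32 for Zscan4e, 4.26 for Zscan4c, 4.19 for Gpx2, 3.95 for Zscan4f and 2.29 for Spic. They were -4.61 for Mir17hg, -3.93 for Mir3077, -3.77 for H1fx, -3.58 for Hnrnpab, -3.49 for Bola2, -2.96 for Snord35b and -2.05 for Cd1d1. Both tests use the same siEtv5 libraries. Genes named above for the siEtv5 transition were called against siMlx as well, outside the 17. They were Gm4850 (3.44), Tcl1 (3.09), Tnfaip6 (2.90), Ooep (2.37), Sap30 (-3.19) and Usf2 (-2.25), and these calls were not followed under the alternatives. Of the 17, 10 lost their call under some alternative, with an adjusted p of up to 0.19: 0610040F04Rik, Bola2, Cd1d1, Cyb5, Gm5662, H1fx, Hnrnpab, Mir3077, Spic and Zscan4f.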

How the results depend on the processing

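Of the siEtv5 transition, 4130 genes were called higher and 2501 lower, and the counts stayed within 1.5 times of these under every scaling, pseudocount, model and block tried, except for 2585 higher with a filter at 5 FPKM, which tested fewer genes. Leaving out each library in turn gave 2657 to 4170 higher and 1161 to 2634 lower, the low ends without a 2-cell library, where the lone 2-cell library is assumed to vary like the zygotes. The difference from siCtrl was called higher in 11 genes, and in 17 with FPKM as deposited, 23 with a pseudocount of 0.1, 69 with no filter, 19 after scaling to one total and 34 with voom. Leaving out each library gave 5 to 294 higher and 6 to 417 lower against siCtrl, and 17 to 428 higher and 4 to 233 lower against siMlx. The cause of these shifts was not tested.

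Replicate numbers gave no clear sign of pairing in the siEtv5 samples: deviations of same-numbered libraries correlated at 0.04 in both pairs. With only replicates 1 and 2 at the 2-cell stage, their deviations mirror each other. The values are thus not separate checks and cannot decide whether samples were paired. With the number as a replicate block, 4288 genes were higher and 2667 lower in the transition, 7 higher and 7 lower in the difference from siCtrl, and 94 higher and 17 lower in that from siMlx.

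Of named genes, 28 lost their call in the transition under at least 1 alternative, all 28 without a 2-cell siEtv5 library. Under the other settings, Cyb5, Elk4 and Tle6 were lost as deposited and scaled to one total, Mlxip scaled to one total, Tle6 and Usf1 with no filter, Hspa1a and Srebf2 with a pseudocount of 0.1, and Srebf2 with the block and in a single fit. Of the differences, 5 from siCtrl and 10 from siMlx were lost; with the block these were Fkbp3, H1fx, H2afx and Snord35b against siCtrl and 0610040F04Rik, Cd1d1 and Spic against siMlx. Against siCtrl, voom also lost Fkbp3, H1fx and Snord35b, and Fkbp3 was lost with a pseudocount of 0.1 and scaled to one total, while Spic was lost against siMlx with FPKM as deposited. Among named genes that were not called, some signs turned. Rfx1 was 0.048 as deposited, 0.0042 with the block and 0.11 scaled to one total. Mlx was -0.040 with the block. Zp3 was -0.24 with the block and -0.076 in a single fit with siCtrl. Rpl30 was -0.034 with a pseudocount of 0.1 and -0.099 with voom. Leaving out a library gave ranges of -0.056 to 0.40 for H2afx, -0.17 to 0.81 for Hnrnpab, -0.079 to 0.18 for Mlx, -0.64 to 0.045 for Rfx1, -1.57 to 3.94 for Rpl30 and -0.29 to 0.28 for Zp3. The Etv5 difference from siCtrl was 0.70 with a pseudocount of 0.1 and 2.28 with voom. The meiosis list's median became 0.0023 scaled to one total.

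With promoters taken from 1000 bases before the start, CCGGAAG was found in 25.3% of tested genes, 25.8% of those called higher, 21.7% of those called lower, 26.9% of uncalled genes, 22.7% of those that rose by over 5, 19.7% of those that fell by over 4 and 16.2% of all promoters.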
